A study of Mus musculus with 9 samples.

Results

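NK cells that lacked the TYK2 protein were compared with NK cells that carried a kinase-inactive form of it. The comparison took all 3 Tyk2-/- arrays and all 3 Tyk2K923E arrays, 6 of the 9 arrays of the series. The study cultured splenic NK cells of 3 genotypes: wild-type (WT), Tyk2-/- and Tyk2K923E. Donor mice were female and on the C57BL/6N background. Cells were enriched with DX5 magnetic beads, pooled from 3 to 4 mice for each genotype and experiment, and grown for 7 days with recombinant human IL-2 at 5000 U/ml. Each of 3 independent experiments gave 1 array per genotype, so an array stands for a pool of mice and not for 1 animal. All groups shared the strain, sex, enrichment and IL-2 culture, and no group received an interferon or another stimulus per the labels. The part of Tyk2 that the null allele lacks was not given in the sources used here.

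TYK2 is a Janus kinase that is bound to the receptors for type I interferon, IL-12 and related cytokines and phosphorylates STAT transcription factors when these receptors are engaged. Like other Janus kinases it also has a structural role, since it can hold its receptor chains at the cell surface independently of catalysis. In Tyk2K923E a lysine of the kinase domain that binds ATP is replaced by glutamate, which leaves a protein without catalytic activity. Both mutants therefore lack the kinase activity and differ in whether the protein is there. The comparison asks which transcripts of IL-2-expanded NK cells depend on the protein and not on its catalysis.

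The arrays measured RNA levels as log2 values, in which a difference of 1 is a doubling. A gene was tested where a probe set with a single gene symbol reached the median of its array (5.42 to 5.48) on at least 3 of the 9 arrays, which left 12579 genes, each represented by its brightest probe set. Differences are Tyk2-/- minus Tyk2K923E, from a paired limma fit with the experiment as a block. The fit used all 9 arrays, and p-values were adjusted by the Benjamini-Hochberg method over all 12579 genes, with a threshold of 0.05. With 3 arrays against 3, an exact unpaired permutation test of a single gene cannot go below p = 0.1, and a paired one cannot go as low. All calls therefore rest on this fit, and the small number of arrays limits the precision.

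The 3 arrays of experiment 1 stood apart from the other 6 on the first principal component, which held 61.0% of the variance over genes. Principal results are therefore given also without experiment 1. All 13 measured NK identity markers lay at or above the array median on all 9 arrays, while 10 of 11 measured markers of B and plasma cells lay below it on all of them. Also at or above it on all 9 were 13 of 15 markers of T cells, 6 of 13 of dendritic cells and 4 of 11 of basophils and mast cells. The counts were 4 of 12 for stromal and endothelial cells, 3 of 7 for erythroid cells and platelets, 2 of 13 for monocytes and macrophages and 2 of 12 for neutrophils. These counts do not show that the cultures held NK cells alone. The Tyk2 probe set read 9.55, 8.63 and 8.85 on the Tyk2-/- arrays and 8.63, 8.43 and 8.52 on the Tyk2K923E arrays. The Tyk2-/- values were thus not lower, and the difference of 0.49 (95% interval 0.15 to 0.82) missed the threshold (limma adjusted p = 0.452). Whether this probe set lies in the deleted part was not given, so it does not check the genotype.

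Only 3 of the 12579 genes (0.0238%) differed between the mutants past the threshold. Wdfy4 and Ckap4 were higher in Tyk2-/- cells, by 5.40-fold and 3.94-fold, and Mapk8 was lower, by 2.23-fold. The size of the Ckap4 difference is less certain, since the gene lay about at the array median, the cut-off for testing, in Tyk2K923E cells. With that median taken as a floor, Ckap4 was at least 3.75-fold higher in Tyk2-/- cells. WDFY4 is a BEACH domain protein known from antigen cross-presentation by dendritic cells, CKAP4 is a membrane protein that links the endoplasmic reticulum to microtubules, and MAPK8 is the stress-activated kinase JNK1. For each of the 3 genes, the Tyk2K923E arrays read close to the WT arrays and the Tyk2-/- arrays stood apart.

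Each gene's upstream stretch is shown to give its position and composition. The sequences are RefSeq's for mouse build GRCm38.p6, and each holds the 250 bases before an annotated transcription start, written 5′ to 3′ along the gene's strand. Capitals mark the 40 bases next to the start. Wdfy4 lies on the minus strand of chromosome 14 (stretch at chr14:33185067-33185316), Mapk8 on the same strand of the same chromosome (chr14:33447159-33447408), and Ckap4 on the minus strand of chromosome 10 (chr10:84533889-84534138).
Wdfy4: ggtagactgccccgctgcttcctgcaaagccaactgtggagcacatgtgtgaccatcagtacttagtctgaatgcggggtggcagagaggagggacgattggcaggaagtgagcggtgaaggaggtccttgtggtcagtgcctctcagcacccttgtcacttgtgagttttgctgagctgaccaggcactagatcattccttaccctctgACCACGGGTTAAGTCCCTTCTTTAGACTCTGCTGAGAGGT
Mapk8: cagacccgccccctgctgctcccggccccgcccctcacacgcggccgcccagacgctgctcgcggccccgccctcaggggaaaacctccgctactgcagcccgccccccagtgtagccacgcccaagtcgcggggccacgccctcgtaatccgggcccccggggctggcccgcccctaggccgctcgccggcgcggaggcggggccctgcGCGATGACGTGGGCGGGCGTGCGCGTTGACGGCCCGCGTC
Ckap4: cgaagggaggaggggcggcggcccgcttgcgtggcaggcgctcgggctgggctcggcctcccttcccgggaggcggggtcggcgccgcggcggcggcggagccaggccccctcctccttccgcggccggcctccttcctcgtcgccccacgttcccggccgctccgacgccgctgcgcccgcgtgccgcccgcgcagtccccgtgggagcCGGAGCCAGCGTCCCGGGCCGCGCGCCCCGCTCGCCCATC
Together with the 50 bases after the start, G and C made up 54.3% of the Wdfy4 window, 77.7% of the Mapk8 window and 81.3% of the Ckap4 window. The median over all 32851 RefSeq promoter windows of that length was 52.7%. Both motifs searched for bear on cytokine signalling: TTCNNNGAA, the core of a STAT site, and GAAA repeated after a gap of 2 bases, the core of an interferon-stimulated response element. Neither was found on either strand of these windows, and 8.3% and 3.44% of all windows hold them, respectively. A second RefSeq start of Mapk8 (window chr14:33410975-33411274) held neither motif either.

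Wdfy4 read 8.23, 8.43 and 8.21 on the Tyk2-/- arrays of experiments 1 to 3. On the Tyk2K923E arrays it read 5.66, 6.14 and 5.77, and on the WT arrays 5.77, 6.12 and 5.70. The Tyk2-/- values lay more than 2 log2 units above all others, and those of Tyk2K923E and WT overlapped. The mean was 8.29 ± 0.12 in Tyk2-/- cells and 5.86 ± 0.25 in Tyk2K923E cells (SD, n = 3), a difference of 2.43 (SE 0.07, 95% interval 2.27 to 2.60, limma adjusted p = 7.01e-06). Within the experiments the difference was 2.57, 2.29 and 2.43. Against WT, the same fit gave 2.43 for Tyk2-/- (adjusted p = 7.16e-06) and -0.01 for Tyk2K923E (95% interval -0.17 to 0.16, limma adjusted p = 0.986). These comparisons share the Tyk2-/- and WT arrays and are not independent of one another.

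Ckap4 read 7.26, 7.38 and 7.54 on the Tyk2-/- arrays. It read 5.36, 5.35 and 5.54 on the Tyk2K923E arrays and 5.37, 5.05 and 5.34 on the WT arrays. All Tyk2-/- values were above all others. Only 1 of the other 6 values reached its array's median, so outside Tyk2-/- cells Ckap4 lay close to or below the cut-off used for testing. It was tested only because the Tyk2-/- arrays were high. The means were 7.39 ± 0.14 and 5.42 ± 0.10 (SD, n = 3), and the difference was 1.98 (SE 0.08, 95% interval 1.78 to 2.17, limma adjusted p = 7.43e-05). Within the experiments it was 1.90, 2.02 and 2.01. With Tyk2K923E values below their array's median raised to it, the difference was 1.91, so Ckap4 was at least 3.75-fold higher in Tyk2-/- cells by that floor. The files give no detection call that would set the floor otherwise. The same fit gave 2.14 for Tyk2-/- against WT and 0.16 for Tyk2K923E against WT (95% interval -0.03 to 0.36).

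Mapk8 was the called gene with the opposite direction. It read 6.60, 6.59 and 6.34 on the Tyk2-/- arrays, against 7.61, 7.77 and 7.62 on the Tyk2K923E arrays and 7.78, 7.54 and 7.53 on the WT arrays. The Tyk2-/- values lay below all others, and those of the other genotypes overlapped. The means were 6.51 ± 0.15 and 7.67 ± 0.09 (SD, n = 3), a difference of -1.16 (SE 0.08, 95% interval -1.35 to -0.96, limma adjusted p = 0.00316). Against WT, Mapk8 differed by -1.11 in Tyk2-/- cells (adjusted p = 0.00336) and by 0.05 in Tyk2K923E cells (95% interval -0.14 to 0.25).

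**Figure D1:**
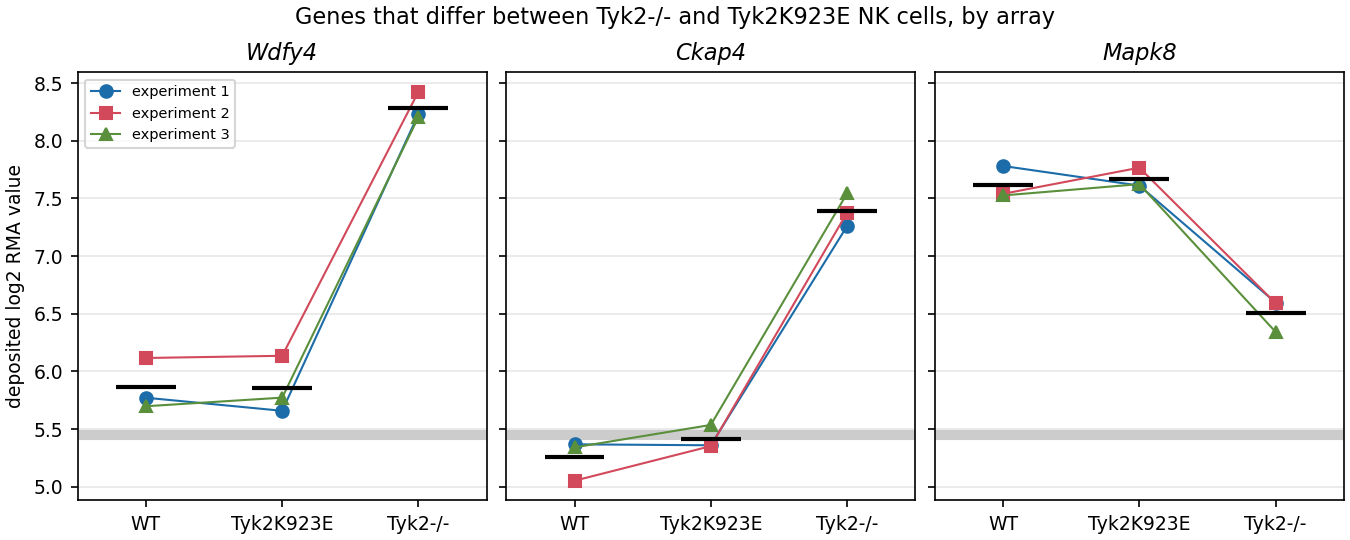
Deposited log2 values of Wdfy4, Ckap4 and Mapk8 on each array, by genotype; points of 1 experiment are joined, black bars are means of 3 arrays and the grey band is the range of the array medians, 5.42 to 5.48. The 3 Tyk2-/- points lie above the other 6 for Wdfy4 and Ckap4 and below them for Mapk8.

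Without experiment 1, Wdfy4 differed by 2.36 and Ckap4 by 2.02, each with a limma adjusted p of 0.00327. Mapk8 differed by -1.23 and stayed past the threshold narrowly (limma adjusted p = 0.04999). The Mapk8 call was lost when any of 3 arrays or experiment 3 was left out. Its limma adjusted p was 0.0526 without the Tyk2-/- array of experiment 1, 0.0603 without that of experiment 3, 0.0541 without the Tyk2K923E array of experiment 3, and 0.39 without experiment 3 as a whole. The difference lay between -1.25 and -1.09 over these and all other alternatives, so its size moved little. Wdfy4 and Ckap4 stayed past the threshold under all 27 alternatives run for them.

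Wdfy4 and Mapk8 lie close together on chromosome 14. Ordered by start coordinate in RefSeq, 2 protein-coding genes come between them, Lrrc18 and Arhgap22, an order that does not show whether either overlaps Wdfy4. Arhgap22 was the one of the pair that was tested, and it differed by -0.01 (95% interval -0.13 to 0.12). Each mutant is a mouse line of its own, so the absence of the protein and other differences between the lines, at this stretch of chromosome 14 or elsewhere, cannot be told apart. The positions of the probes were not given in the sources used here, and whether the signals of Wdfy4, Mapk8 and Ckap4 come from the annotated transcripts was not tested. Of the 20 tested genes around Wdfy4, 10 on either side, Mapk8 alone passed the threshold. The others ranged from -0.23 for Tmem273 to 0.14 for Glud1, the gene of glutamate dehydrogenase. Among the 20 tested genes around Ckap4 none passed the threshold (limma), 3 had an unadjusted p under 0.05, and the values ran from -0.33 for Gm6713 to 0.17 for Txnrd1, the gene of thioredoxin reductase. Around Tyk2 itself, on chromosome 9, none of 20 passed (limma), 3 had an unadjusted p under 0.05, and the values ran from -0.22 for Zfp846 to 0.28 for Dnmt1, the gene of the maintenance DNA methyltransferase. For comparison with both stretches, 9.68% of all genes tested had an unadjusted p under 0.05 (limma).

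**Figure D2:**
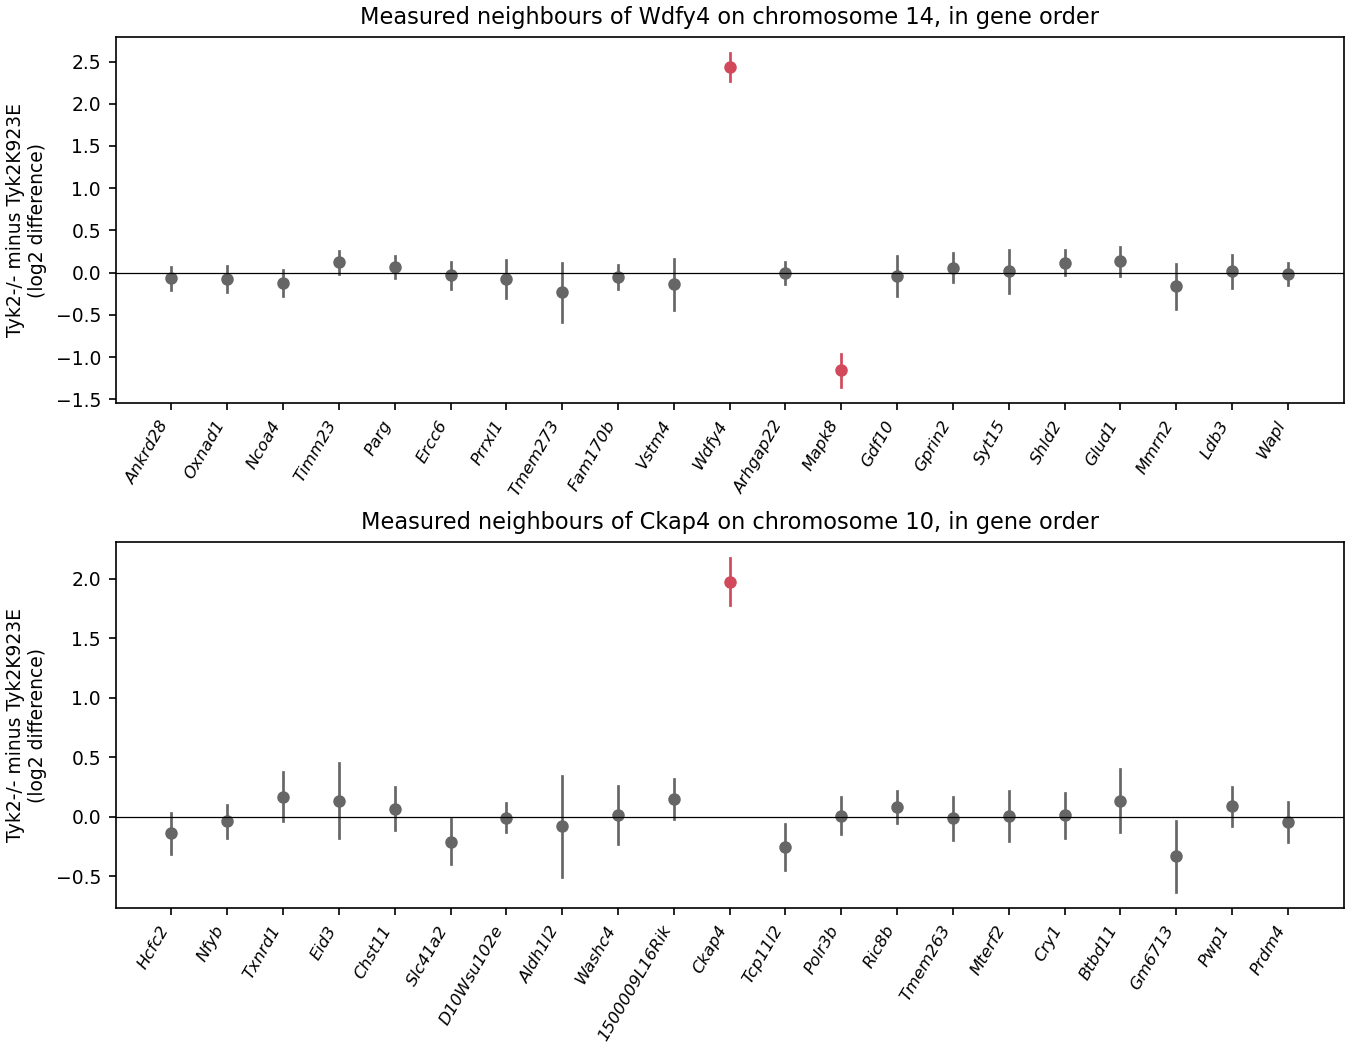
Log2 differences (Tyk2-/- minus Tyk2K923E) with 95% intervals of the 10 tested genes on either side of Wdfy4 and of Ckap4, in chromosome order and not to distance; red marks genes past the threshold. Wdfy4 at 2.43 and Mapk8 at -1.16 stand out, with Arhgap22 at -0.01 between them, and Ckap4 at 1.98 stands alone.

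Relatives of the 3 genes by function were listed to see whether a family moved as a whole. Of 9 tested BEACH domain genes only Wdfy4 passed, and the median of the list was 0.06. Nbea, a BEACH protein known from vesicle traffic in neurons, read 5.01, 5.36 and 5.35 in Tyk2-/- cells and 5.95, 6.24 and 5.54 in Tyk2K923E cells, a difference of -0.67 (limma adjusted p = 0.452). All 3 Tyk2-/- values of Nbea lay below the array median, so the size of this difference is less certain. Of 9 tested genes that shape the endoplasmic reticulum or tie it to microtubules only Ckap4 passed, and the other members lay between -0.09 and 0.18. Of 19 tested MAP kinases and JNK pathway genes only Mapk8 passed, with a median of 0.02 over the list. Mapk11, the gene of p38 beta, read 7.18, 7.09 and 7.03 in Tyk2-/- cells and 6.51, 6.18 and 6.40 in Tyk2K923E cells. These Mapk11 values did not overlap, yet the difference of 0.74 (95% interval 0.50 to 0.98) missed the threshold at a limma adjusted p of 0.117.

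Over all genes the mutants were close. The median difference was 0.00 (0.00255), with 6424 genes higher and 6146 lower in Tyk2-/- cells. The 95% interval lay within -0.5 to 0.5 for 11764 genes (93.5%) and within -1 to 1, a doubling either way, for 12540 genes (99.7%), with a median width of 0.35. A p that misses the threshold does not show that a gene was alike in both mutants, and these intervals give the size of difference that the arrays leave possible. Only 6 genes differed by 2-fold or more: the 3 called genes, Mid1, Snora73a and Snora73b.

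**Figure D3:**
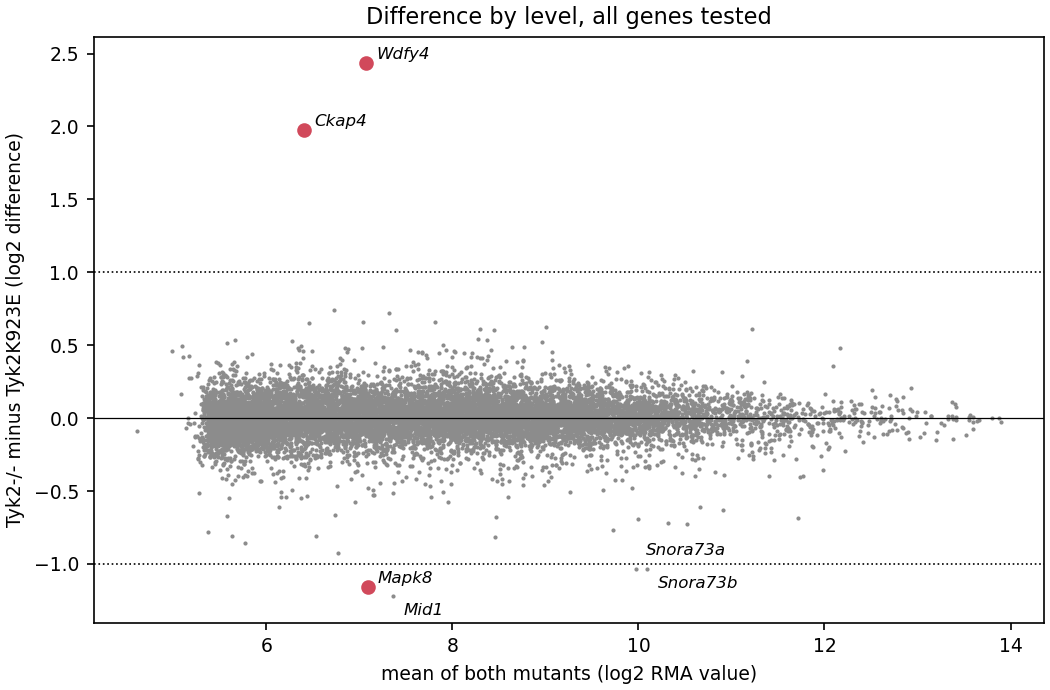
Log2 difference (Tyk2-/- minus Tyk2K923E) against the mean log2 value of both mutants for the 12579 genes tested; red points passed the threshold, and dotted lines mark a 2-fold difference. Wdfy4 (2.43) and Ckap4 (1.98) lie apart above the cloud, while Mapk8 (-1.16) lies near Mid1 (-1.22), which missed the threshold.

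At an unadjusted p under 0.05 the paired fit listed 1218 genes (9.68% of those tested), 603 higher (4.79%) and 615 lower (4.89%) in Tyk2-/- cells. The same fit without the experiment block listed 303. These genes did not pass the adjustment, and their shares serve below as the background for the gene lists. Against WT, 11 genes passed in Tyk2-/- cells (0.0874%) and 11 in Tyk2K923E cells (0.0874%).

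Mid1, the gene of a microtubule-bound ubiquitin ligase, had the most negative difference of all genes. It read 6.57, 6.93 and 6.75 in Tyk2-/- cells, 7.26, 8.32 and 8.34 in Tyk2K923E cells and 5.83, 6.92 and 6.61 in WT cells. Here the Tyk2K923E arrays stood apart, and those of Tyk2-/- and WT overlapped. The difference of -1.22 (95% interval -1.59 to -0.85) missed the threshold (limma adjusted p = 0.102), with -0.69, -1.39 and -1.59 within the experiments. Without the Tyk2-/- array of experiment 1 it passed at a limma adjusted p of 0.00743, and without experiment 1 as a whole it passed narrowly with a difference of -1.49 (limma adjusted p = 0.04999). It passed also with array weights (limma adjusted p = 0.0403). Against WT it was 0.30 in Tyk2-/- cells (limma adjusted p = 0.619) and rose by 1.52 in Tyk2K923E cells (limma adjusted p = 0.0375).

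Snora73a and Snora73b code for near-identical small nucleolar RNAs that take part in ribosomal RNA processing, and the array may not tell them apart. Snora73a read 9.51, 9.55 and 9.30 in Tyk2-/- cells, 11.1, 10.1 and 10.3 in Tyk2K923E cells and 10.7, 9.56 and 10.4 in WT cells. The Tyk2K923E values were above the Tyk2-/- values and overlapped those of WT. Each of the pair differed by -1.04 between the mutants, with limma adjusted p-values of 0.389 and 0.37.

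Beyond the 3 called genes, the 21 genes with the next smallest p, taken so that each direction had 12, had limma adjusted p-values from 0.102 to 0.368, so none is a call in the fit reported here. In 10 of them the Tyk2K923E mean was nearer to WT, and in 11 the Tyk2-/- mean was. Over all 12579 genes the share with Tyk2K923E nearer was 50.04%.

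Ctla4, an inhibitory receptor of activated lymphocytes, read 8.40, 7.12 and 6.98 in Tyk2-/- cells and 9.04, 7.51 and 7.57 in Tyk2K923E cells. The genotypes overlapped because experiment 1 was high in both, and within each experiment Tyk2-/- was lower, by -0.54 on average (limma adjusted p = 0.102). Ctla4 passed with the stricter filter at the 70th percentile of each array (limma adjusted p = 0.0428). Plxnb2, a semaphorin receptor, read 6.65, 6.51 and 6.69 against 6.07, 6.03 and 6.27, a difference of 0.50 with no overlap (limma adjusted p = 0.102). Against WT, Plxnb2 rose by 0.53 in Tyk2-/- cells (limma adjusted p = 0.0446) and differed by 0.03 in Tyk2K923E cells. Plxnb2 and Mapk11, given above, both lie on chromosome 15 and were both higher in Tyk2-/- cells. Whether Plxnb2 and Mapk11 are neighbours there was not tested, so they may not be separate observations.

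In other genes it was the kinase-inactive cells that lay away from WT. Cd160, a receptor of cytotoxic lymphocytes, read 8.01, 8.05 and 8.17 in Tyk2-/- cells, 7.60, 7.70 and 7.59 in Tyk2K923E cells and 8.14, 8.40 and 8.39 in WT cells. The mutants did not overlap, and the difference was 0.44 (95% interval 0.28 to 0.61, limma adjusted p = 0.231). Relative to WT, Cd160 was -0.24 in Tyk2-/- cells (limma adjusted p = 0.432) and fell by 0.68 in Tyk2K923E cells (limma adjusted p = 0.0375). Prkce, the gene of protein kinase C epsilon, read 6.60, 6.52 and 6.62 against 6.13, 6.06 and 6.11, with WT at 6.39, 6.52 and 6.53. Its difference was 0.48 (limma adjusted p = 0.102), which passed with a random experiment block (limma adjusted p = 0.0416).

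Serpinb9b, a relative of the granzyme B inhibitor SERPINB9, was among those with the higher value in Tyk2K923E cells. It read 10.7, 10.6 and 10.5 in Tyk2-/- cells, 11.3, 11.0 and 11.4 in Tyk2K923E cells and 10.8, 10.7 and 10.7 in WT cells. The Tyk2K923E values lay above all others, and the difference was -0.63 (95% interval -0.83 to -0.43, limma adjusted p = 0.111). Lta, the gene of lymphotoxin alpha, read 8.27, 8.06 and 8.11 in Tyk2-/- cells and 7.67, 7.52 and 7.27 in Tyk2K923E cells, with WT between at 7.98, 7.58 and 7.86. The mutants did not overlap, and the difference was 0.66 (95% interval 0.44 to 0.88, limma adjusted p = 0.117).

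**Figure D4:**
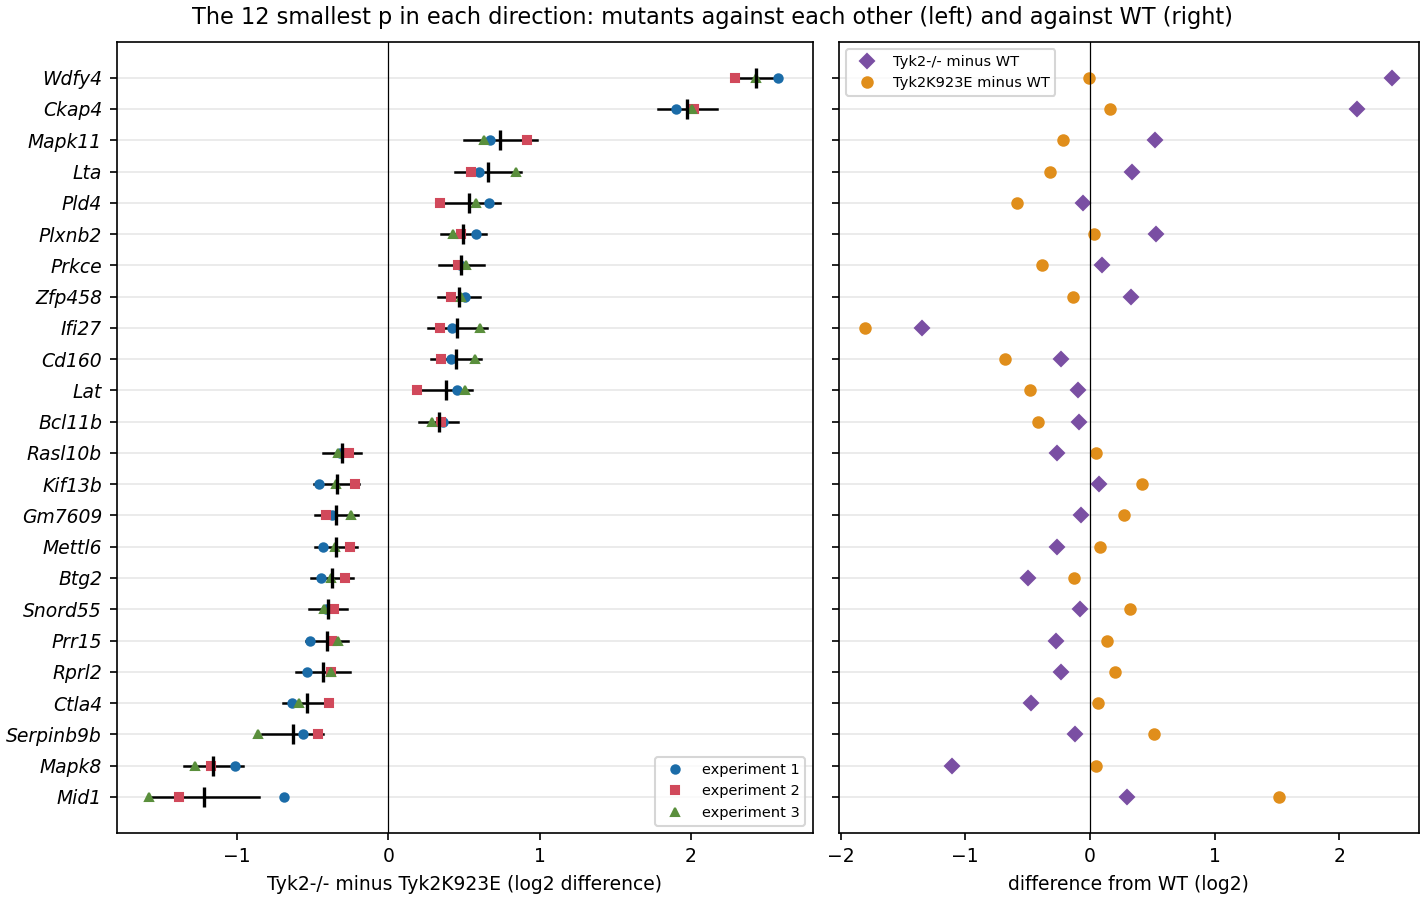
The 12 genes of smallest p in each direction: on the left the log2 difference (Tyk2-/- minus Tyk2K923E) with its 95% interval and its value in each experiment, on the right the log2 difference of each mutant from WT. Wdfy4, Ckap4 and Mapk8 passed the threshold, and their Tyk2K923E points sit near 0 on the right, while for Mid1 that point is at 1.52 and for Cd160 at -0.68.

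Some genes fell against WT in both mutants. Casp4, the gene of the inflammatory caspase that senses lipopolysaccharide in the cytosol, read 5.70, 6.13 and 5.86 in Tyk2-/- cells, 6.31, 6.14 and 5.81 in Tyk2K923E cells and 8.56, 7.75 and 7.35 in WT cells. The mutants overlapped and both lay below WT. Against WT, Casp4 fell to a difference of -1.99 in Tyk2-/- and of -1.80 in Tyk2K923E cells (limma adjusted p = 0.0353 and 0.0462), and the mutants differed by -0.19 (95% interval -0.70 to 0.33). Ifi214, an interferon-inducible gene of the p200 family, lay below the array median on all 6 mutant arrays and was tested only through its 3 WT arrays. It read 4.04 to 4.82 in both mutants and 5.56 to 6.05 in WT cells, and no difference between the mutants could be read at that level.

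Ccl5, the chemokine RANTES, read 9.96, 9.05 and 9.74 in Tyk2-/- cells and 9.91, 9.35 and 9.64 in Tyk2K923E cells, below all WT values of 10.8, 10.6 and 10.5. The mutants differed by -0.05 (95% interval -0.37 to 0.28), and neither passed the threshold against WT (limma adjusted p = 0.0649 and 0.0583). Usp18, the protease that removes ISG15 and dampens the interferon receptor, differed by -0.06 between the mutants (95% interval -0.50 to 0.38). Slfn2, a Schlafen gene of lymphocyte quiescence, differed by -0.03 (95% interval -0.21 to 0.16). The differences of both mutants from WT share the WT arrays.

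Ifi27, an interferon-stimulated gene, lay below WT in both mutants and differed in degree. It read 7.22, 7.00 and 7.06 in Tyk2-/- cells, 6.80, 6.66 and 6.45 in Tyk2K923E cells and 8.55, 8.58 and 8.20 in WT cells. No genotype overlapped another. Ifi27 fell against WT, with -1.35 in Tyk2-/- and -1.80 in Tyk2K923E cells (limma adjusted p = 9.14e-04 and 2.78e-04), and the difference between the mutants, 0.46 (95% interval 0.26 to 0.65), missed the threshold (limma adjusted p = 0.34). Mx1, an interferon-induced GTPase gene, differed by 0.42 between the mutants (95% interval 0.17 to 0.67, limma adjusted p = 0.452). It reached the array median on 1 of 3 Tyk2-/- arrays, on 0 of 3 Tyk2K923E arrays and on all 3 WT arrays. The size of its difference between the mutants is therefore uncertain. Rtp4, an interferon-induced chaperone-like protein, differed by 0.29 (95% interval -0.02 to 0.60, limma adjusted p = 0.523).

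Of 33 tested type I interferon-stimulated genes, none passed between the mutants (limma), 6 were higher in Tyk2-/- cells at an unadjusted p under 0.05 and none was lower at that level. Over all genes 4.79% were higher and 4.89% lower at that level. The median difference was 0.08, with 0.07, 0.07 and 0.10 within the experiments. Relative to WT the medians of this list were -0.29 in Tyk2-/- and -0.28 in Tyk2K923E cells. Irf7, the factor that amplifies interferon production, differed by 0.08 (95% interval -0.07 to 0.23). Isg15, the ubiquitin-like modifier, differed by -0.12 (95% interval -0.47 to 0.23). Both are counted in the list, and Mx1, mostly below the array median in the mutants, is 1 of the 6 higher genes.

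The GTPases and regulators induced by interferon-gamma had a larger share at the unadjusted level. Of 15 tested, none passed the adjusted threshold (limma), 7 were higher in Tyk2-/- cells at an unadjusted p under 0.05 and none was lower, beside a background of 4.79% higher over all genes. The median was 0.18, with 0.17, 0.03 and 0.31 within the experiments. Igtp, a GTPase that acts on the vacuoles of intracellular parasites, read 8.66, 8.62 and 8.50 in Tyk2-/- cells, 8.01, 8.41 and 8.09 in Tyk2K923E cells and 8.50, 8.68 and 8.67 in WT cells. The Tyk2K923E values lay below the others, by 0.43 from Tyk2-/- (95% interval 0.22 to 0.64, limma adjusted p = 0.397). Nlrc5, the transactivator of MHC class I genes, differed by 0.42 (limma adjusted p = 0.452). The MHC class I presentation genes themselves had a median of 0.04, with none of 15 past either level (limma).

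The values of T cell markers ran the same way. Of 14 tested T cell markers, 6 were higher in Tyk2-/- cells at an unadjusted p under 0.05, none was lower and none passed (limma). The background over all genes was 4.79% higher and 4.89% lower. The median of the markers was 0.22, with 0.27, -0.04 and 0.34 within the experiments. Cd8a read 8.68, 8.68 and 8.88 in Tyk2-/- cells, 8.01, 8.58 and 7.85 in Tyk2K923E cells and 9.20, 8.72 and 9.27 in WT cells. The mean level over the 15 markers with a probe set was 8.19 to 8.40 on the Tyk2-/- arrays, 7.99 to 8.22 on the Tyk2K923E arrays and 8.17 to 8.51 on the WT arrays. Of those 15 markers, 13 lay at or above the array median on all 9 arrays and none lay below it on all. NK cells express several of these genes themselves, and in cultures measured in bulk fewer cells of a type and less RNA per cell cannot be told apart. The part of T cell RNA in the values of other genes was not tested.

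Cytokine genes of NK cells included 12 tested members, and none passed the threshold (limma). At an unadjusted p under 0.05, where 4.79% of all genes were higher and 4.89% lower, 3 were higher in Tyk2-/- cells and none was lower. The 3 were Lta, Ltb and Tnf, neighbours in 1 gene cluster that code for related cytokines. Ltb, lymphotoxin beta, differed by 0.36 (95% interval 0.17 to 0.55) and Tnf by 0.32 (95% interval 0.14 to 0.50), each with a limma adjusted p of 0.452. Ifng, the signature cytokine of NK cells, differed by -0.13 (95% interval -0.33 to 0.06). The T cell marker median moved the same way as these cytokines in experiments 1 and 3, and its part was not tested.

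No gene of the cytotoxic machinery passed the threshold. Of 23 tested granule and death ligand genes, 6 had a positive and 17 a negative difference, 1 was higher and 4 were lower in Tyk2-/- cells at an unadjusted p under 0.05 (limma), beside 4.79% and 4.89% over all genes, and the median was -0.08. The most negative members were Gzmf and Serpinb9b, the latter at -0.63 as given above. Gzmb, granzyme B, read 13.4, 13.4 and 13.3 in Tyk2-/- cells and 13.3, 13.4 and 13.4 in Tyk2K923E cells, a difference of 0.01 (95% interval -0.13 to 0.16). Prf1, perforin, differed by -0.10 (95% interval -0.24 to 0.03). Gzmf, a granzyme with near-identical relatives that probes may not separate, read 11.6, 11.7 and 10.8 against 12.5, 11.8 and 11.8, a difference of -0.68 (95% interval -1.15 to -0.22, limma adjusted p = 0.452). Gzmf passed only without the Tyk2-/- array of experiment 2 or without experiment 2 as a whole. Tnfsf10, the death ligand TRAIL, differed by 0.38 (limma adjusted p = 0.452).

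NK cell surface receptors were split. Of 24 tested, 3 were higher and 4 were lower in Tyk2-/- cells at an unadjusted p under 0.05, beside 4.79% and 4.89% over all genes. None passed (limma), and the median was 0.02. Klrg1, an inhibitory receptor of mature NK cells, read 11.50, 11.74 and 11.37 in Tyk2-/- cells and 11.99, 11.90 and 11.91 in Tyk2K923E cells, a difference of -0.40 (95% interval -0.63 to -0.17). Klra9, an inhibitory Ly49 receptor with close relatives, differed by -0.45 (95% interval -0.77 to -0.14). The activating receptors Ncr1 and Klrk1 (NKp46 and NKG2D) differed by -0.07 (95% interval -0.33 to 0.19) and 0.15 (95% interval -0.02 to 0.32). The integrins Itga2, the DX5 antigen used for the enrichment, and Itgam, a maturation marker, differed by 0.32 (95% interval 0.13 to 0.51) and -0.46 (95% interval -0.84 to -0.09), with limma adjusted p-values of 0.452 and 0.455. Itgam differed by 0.01, -0.89 and -0.52 within the experiments, and by -0.24 without the Tyk2-/- array of experiment 2 and -0.70 without experiment 1.

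The cytokine receptors that hold TYK2, with their partner kinases and STATs, gave a median of 0.08 over 18 tested genes, 3 of them higher at an unadjusted p under 0.05 and none past the threshold (limma). Tyk2 itself was 1 of the 3, and 4.79% of all genes were higher at that level. Stat4, the STAT factor that IL-12 activates, differed by 0.21 (95% interval 0.00 to 0.42). Its difference was 0.41, -0.03 and 0.25 within the experiments, and it was 0.11 without the Tyk2K923E array of experiment 1 and 0.33 without experiment 2. Stat2, a STAT factor of type I interferon signalling, differed by 0.20 (95% interval 0.03 to 0.38). Of 16 tested feedback inhibitors of cytokine signalling, 4 were higher at that level, beside the same 4.79% over all genes, and none passed (limma). Socs1 read 7.90, 7.67 and 7.77 in Tyk2-/- cells and 7.48, 7.61 and 7.45 in Tyk2K923E cells, a difference of 0.27 (95% interval 0.08 to 0.46). Cish, the IL-2-induced inhibitor, differed by 0.35 (95% interval 0.08 to 0.62). Some lists share members: Stat2 is also counted among the type I interferon-stimulated genes, and Socs1 among the genes induced by interferon-gamma. The counts of these lists are therefore not independent of one another.

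The differences of cell cycle and DNA replication genes were positive mostly through experiment 1. Of 36 tested, 35 had a positive difference, 10 of these at an unadjusted p under 0.05, and none passed (limma). Among all 12579 genes, 6424 had a positive difference, and 4.79% were higher at that unadjusted level. The median was 0.22 over all experiments, with 0.60 in experiment 1, -0.04 in experiment 2 and 0.12 in experiment 3, and it was 0.02 without experiment 1. Cenpf, a kinetochore protein of dividing cells, read 7.72, 8.98 and 9.12 in Tyk2-/- cells and 6.74, 8.84 and 8.41 in Tyk2K923E cells. Experiment 1 was low in both mutants, and in Tyk2K923E cells by more. The difference was 0.61 (95% interval 0.27 to 0.95, limma adjusted p = 0.452).

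The p200 and Schlafen genes, which interferon activates, had a median of 0.21 over 8 tested genes, with -0.03, 0.19 and 0.16 within the experiments. Of the 8, 2 were higher at an unadjusted p under 0.05, beside 4.79% of all genes, and none passed (limma). Slfn3, a Schlafen gene of lymphocytes, differed by 0.27 (95% interval 0.08 to 0.47). Exhaustion and checkpoint receptors had a median of 0.11 over 10 genes, with 0.07, -0.06 and 0.20 within the experiments. Of these 10, 1 was higher and 3 were lower in Tyk2-/- cells at an unadjusted p under 0.05, beside 4.79% and 4.89% of all genes, and none passed (limma). Markers of stromal and endothelial cells had a median of -0.15 over 5 genes. The nuclear-encoded respiratory chain subunits had a median of 0.03 over 33 genes, glycolysis and hypoxia-responsive genes 0.00 over 19, and IL-2 and STAT5 target genes 0.03 over 20. Immediate early genes, which answer acute activation, had a median of -0.08 over 19 genes, 4 of them lower at an unadjusted p under 0.05. The share of all genes lower at that level was 4.89%. Nr4a2, an activation-induced nuclear receptor, differed by -0.34 (95% interval -0.55 to -0.13, limma adjusted p = 0.452). Markers of basophils and mast cells had a median of -0.32 over 4 tested genes, while 7 of 11 with a probe set, among them the defining Fcer1a, Ms4a2 and Gata2, lay below the array median on all 9 arrays. Cpa3, a mast cell protease, read 6.17, 6.57 and 6.20 in Tyk2-/- cells and 7.60, 7.54 and 6.57 in Tyk2K923E cells, a difference of -0.93 (limma adjusted p = 0.452). This was the most negative of the 4, and the highest was 0.03. Mcpt8, a basophil protease, read 10.4, 11.1 and 10.2 in Tyk2-/- cells and 11.0, 11.0 and 10.5 in Tyk2K923E cells. Its difference was -0.28 (limma adjusted p = 0.494), with -0.60, 0.01 and -0.25 within the experiments.

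**Figure D5:**
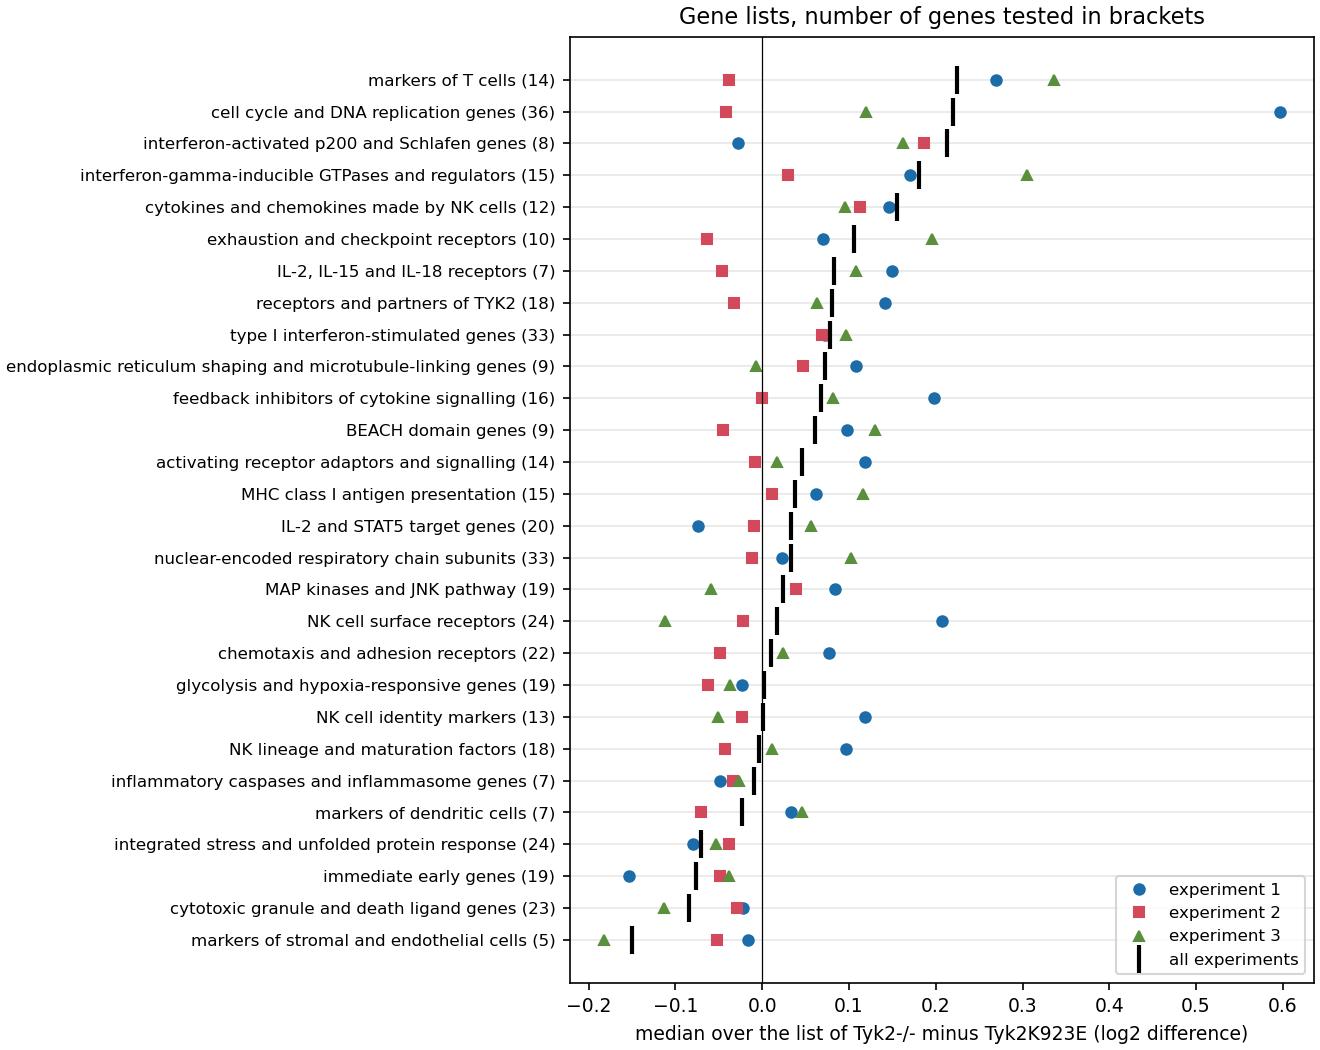
Median log2 difference (Tyk2-/- minus Tyk2K923E) of each gene list with at least 5 tested genes, over all experiments (black bar) and in each experiment (coloured symbols). The medians run from -0.15 to 0.22, and the cell cycle genes show the widest spread, from -0.04 in experiment 2 to 0.60 in experiment 1.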

How the data were processed

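RNA of cultured NK cells was measured on 9 Affymetrix arrays, 3 per genotype. The deposited values are log2 values; per the submitters' processing notes, the authors had normalised them with RMA in Partek 6.6. The version of RMA and the genome build were not given in the sources used here. RMA draws all arrays to a common distribution, so a shift shared by most genes would not be seen.

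Probe sets were named through the platform annotation: 23521 of 41345 carried 1 symbol, 1814 several, and 16010 were not listed. Of the 12579 genes tested, 12511 matched the RefSeq table (GRCm38.p6) by Entrez ID, which gave chromosomes and gene order only. Group means and an additive experiment block were fitted over all 9 arrays with limma (lmFit and eBayes). Intervals are limma's moderated 95% intervals, and SDs are over 3 arrays. P-values measure the difference against the spread left after the genotype means and the experiment block, over all 9 arrays and moderated over all genes.

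The pairing comes from the labels, which number 3 independent experiments in each genotype. Deviations from the genotype mean correlated at 0.383 to 0.787 between arrays of 1 experiment and at -0.71 to 0.559 between arrays of different experiments. Such deviations cancel within a genotype, which by itself lowers the correlations between experiments, so these ranges do not test the pairing. Experiments 2 and 3 were not set apart: Tyk2K923E of experiment 2 correlated at 0.383 with Tyk2-/- of experiment 2 and at 0.483 with Tyk2-/- of experiment 3.

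The text names Tyk2, 37 key genes (NK function, interferon response), all genes past the threshold, the 12 smallest p in each direction and up to 3 members of each gene list; other genes appear only as neighbours or because they differed by 2-fold, and those that passed only when an array was left out were chosen after their values were seen. The 33 lists hold 599 distinct genes, of which 461 were tested. The members and lists were chosen with earlier results of these data known, and no set test was run. Probe sets without a single symbol were fitted with all 21528 probe sets that passed the filter.

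The alternatives were no experiment block or a random one, only the 6 mutant arrays, 3 other filters, median centring, quantile normalisation, an intensity trend, array weights, robust eBayes, averaged probe sets, other thresholds, and fits without each array or each experiment. The procedure was tested on simulated data. Fits used limma 3.58.1 and statmod 1.5.0 in R 4.3.3, and figures matplotlib 3.10.9 in Python 3.11.15.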

Additional observations from a re-analysis of the deposited data

Results flagged for a closer look

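Probe sets that carry no single gene symbol lie outside the comparison of genes. Of 8283 such probe sets that passed the filter, 5 differed between the mutants past the threshold, and 751 did so at an unadjusted p under 0.05 (limma, adjusted over all 21528 probe sets). In the fit of named genes, 1218 of 12579 (9.68%) had an unadjusted p under 0.05. The 5 include probe sets with identical values on all arrays, given further below, which count as 1 measurement. Probe set 17549150 read 12.5, 12.1 and 12.1 on the Tyk2-/- arrays, 6.00, 6.15 and 6.18 on the Tyk2K923E arrays and 6.33, 6.09 and 6.29 on the WT arrays. Its difference between the mutants was 6.16 (95% interval 5.86 to 6.46, 71.5-fold, limma adjusted p = 3.62e-05). Probe set 17549062 read 11.7, 11.3 and 11.4 on the Tyk2-/- arrays, 5.41, 5.72 and 5.59 on the Tyk2K923E arrays and 5.90, 5.58 and 5.91 on the WT arrays. Its difference was 5.90 (95% interval 5.53 to 6.26, 59.6-fold, limma adjusted p = 8.13e-05). For both, the Tyk2-/- arrays stood far above the other 6, and those of Tyk2K923E and WT lay within 1 log2 unit of each other. Both stand here because their signal in Tyk2-/- cells lay above the level of the WT arrays in data outside the gene comparison. What these probe sets measure was not given in the sources used here.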

How the results depend on the processing

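No reported value changed direction in a call. With no replicate block 3 genes passed, the same 3, and the count at an unadjusted p under 0.05 was 303 in place of 1218; with a random replicate block 4 genes passed, Prkce being added, 3 of them higher. The count was 3 under each other setting that kept all arrays, except for 4 with the 70th percentile filter, the intensity trend or array weights, which each raised the genes lower in Tyk2-/- cells from 1 to 2. Leaving out 1 array or experiment gave 2 to 6 genes past the threshold, 0 to 4 of them lower. It was 6 without the Tyk2-/- array of experiment 2 and 5 without experiment 2, and the 2 higher genes were Wdfy4 and Ckap4 in all of these fits. The count at an unadjusted p under 0.05 was then 622 to 1528, lowest without experiment 3. With no filter it was 1677. Of the medians of gene lists, 743 recomputed values stayed within their spread and 46 moved by more, most of them when an array or experiment was left out. Differences that missed the threshold could move more: without 1 array or experiment, Cd8a ran from 0.37 to 0.92, Nlrc5 from 0.25 to 0.60 and Tyk2 from 0.25 to 0.64. Some small differences changed sign in such fits: Casp4 ran from -0.37 to 0.13, Isg15 from -0.37 to 0.08 and Ccl5 from -0.16 to 0.15. For 39 genes the interval reached beyond a doubling.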

Other observations

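The remaining 3 unnamed probe sets past the threshold held identical values on all 9 arrays and count as 1 measurement. They read 8.66, 9.56 and 9.60 on the Tyk2-/- arrays, 5.57, 6.20 and 5.50 on the Tyk2K923E arrays and 8.26, 9.28 and 9.20 on the WT arrays. Here the Tyk2K923E arrays stood apart from both other genotypes, with a difference between the mutants of 3.51 (95% interval 3.03 to 3.99, limma adjusted p = 0.00372). Against WT the value was 0.36 in Tyk2-/- cells and fell by 3.15 in Tyk2K923E cells.

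A probe set shared by Ckap4 and Zfp977 lay between 4.41 and 4.998 on all 9 arrays, below the array medians, and gave no second measurement of Ckap4.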
